A study of Mus musculus with 12 samples.

Results

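The Lcn genes encode lipocalins, small secreted proteins, and 10 of them were measured among the 22154 genes with a single symbol on the arrays. They were taken as every gene whose symbol is Lcn followed by a number: Lcn2, Lcn3, Lcn4, Lcn5, Lcn6, Lcn8, Lcn9, Lcn10, Lcn11 and Lcn12. Where a gene has several probe sets the brightest by its mean over the 12 arrays was to be used, but each of the 10 had 1 probe set, so brightness chose none of them. The genes were picked for description with earlier results on these arrays known, among them the level of Lcn8 in mTEChi.

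Lipocalins fold into a barrel that holds a small hydrophobic ligand, such as a retinoid, an odorant or an iron-binding siderophore. Most mouse Lcn genes lie in a cluster on chromosome 2 and are known for expression in a few tissues, many of them in the epididymis. Medullary thymic epithelial cells (mTECs) express many such tissue-restricted genes, and the transcriptional regulator Aire drives a large part of that expression in the MHC class II high fraction.

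The arrays held RNA of mTECs from C57BL/6 mice aged 4 weeks, sorted as live, CD45-negative, Epcam-positive, UEA-positive and Ly51-low cells with high (mTEChi) or low (mTEClo) MHC class II. The mTEChi groups were Aire-/-, Aire+/+, Brg1-/- and Brg1+/+ with 2 arrays each, and the mTEClo groups were the same 4 genotypes with 1 array each. Brg1, the product of Smarca4, is an ATPase that moves nucleosomes as part of SWI/SNF complexes. The knockout alleles, any Cre driver and the number of mice behind an array are not given in the sources used here, so a p-value here rests on the spread between arrays, which may be technical.

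The Aire probe set stood at 9.01 and 9.73 (log2 intensity) on the arrays labelled Aire-/- mTEChi, against 8.04 and 8.80 on those labelled Aire+/+ mTEChi, so it was not lower in the arrays labelled as knockout. Smarca4 stood at 5.88 and 5.44 in Brg1-/- mTEChi, against 6.13 and 6.89 in Brg1+/+ mTEChi. Whether these probe sets lie inside or outside the deleted exons could not be determined here, and neither reading checks a label. Epcam, an epithelial surface protein, lay between 8.41 and 9.29 on all 12 arrays, and the costimulatory gene Cd80 lay between 8.96 and 10.45 on the mTEChi arrays and between 6.18 and 6.96 on the mTEClo arrays. Array medians over the genes lay between 5.43 and 5.50 on the 8 arrays numbered 1 and between 5.32 and 5.36 on the 4 arrays numbered 2, and each mTEClo array is numbered 1.

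Promoter windows are shown first for the 5 Lcn genes that were lower in the arrays labelled Aire-/- mTEChi than in Aire+/+ mTEChi at an adjusted p under 0.05 (Lcn8, Lcn11, Lcn3, Lcn4 and Lcn6), then for Lcn5, which lies next to Lcn8, and for Lcn2, which lies apart from the cluster; neither of the last 2 passed the test. Each window runs from 250 bases before to 50 bases after the annotated start, 5′ to 3′ on the gene's strand, from RefSeq on build GRCm38.p6, where all 10 Lcn genes matched a window. Capitals mark CpG dinucleotides, the main site of DNA methylation.
Lcn8 (chr2:25652868-25653167, plus strand): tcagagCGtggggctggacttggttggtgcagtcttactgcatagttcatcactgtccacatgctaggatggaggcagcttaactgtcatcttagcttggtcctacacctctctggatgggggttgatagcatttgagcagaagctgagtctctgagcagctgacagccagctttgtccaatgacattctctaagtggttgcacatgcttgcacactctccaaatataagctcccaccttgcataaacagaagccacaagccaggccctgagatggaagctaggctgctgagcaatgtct
Lcn11 (chr2:25776767-25777066, plus strand): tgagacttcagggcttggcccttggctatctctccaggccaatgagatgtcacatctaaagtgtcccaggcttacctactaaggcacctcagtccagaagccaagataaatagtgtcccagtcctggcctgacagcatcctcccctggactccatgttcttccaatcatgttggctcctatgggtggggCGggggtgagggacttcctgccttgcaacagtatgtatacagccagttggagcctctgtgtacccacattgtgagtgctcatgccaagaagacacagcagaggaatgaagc
Lcn3 (chr2:25765283-25765582, plus strand): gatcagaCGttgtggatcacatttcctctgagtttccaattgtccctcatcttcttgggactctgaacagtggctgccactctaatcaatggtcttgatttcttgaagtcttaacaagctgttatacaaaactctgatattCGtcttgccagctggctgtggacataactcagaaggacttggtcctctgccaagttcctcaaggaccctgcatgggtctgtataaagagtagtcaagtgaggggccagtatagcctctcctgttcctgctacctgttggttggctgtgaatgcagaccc
Lcn4 (chr2:26671233-26671532, minus strand): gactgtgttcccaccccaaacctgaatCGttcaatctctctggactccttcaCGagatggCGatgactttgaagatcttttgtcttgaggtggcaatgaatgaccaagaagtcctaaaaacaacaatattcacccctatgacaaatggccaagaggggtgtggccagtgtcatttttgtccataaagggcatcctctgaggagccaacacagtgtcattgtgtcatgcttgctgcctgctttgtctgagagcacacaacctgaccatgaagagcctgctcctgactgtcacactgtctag
Lcn6 (chr2:25676536-25676835, plus strand): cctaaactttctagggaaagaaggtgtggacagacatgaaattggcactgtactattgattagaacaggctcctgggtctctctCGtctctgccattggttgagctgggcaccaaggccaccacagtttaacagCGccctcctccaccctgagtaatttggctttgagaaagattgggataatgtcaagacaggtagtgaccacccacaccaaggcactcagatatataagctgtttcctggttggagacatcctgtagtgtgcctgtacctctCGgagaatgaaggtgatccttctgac
Lcn5 (chr2:25657702-25658001, plus strand): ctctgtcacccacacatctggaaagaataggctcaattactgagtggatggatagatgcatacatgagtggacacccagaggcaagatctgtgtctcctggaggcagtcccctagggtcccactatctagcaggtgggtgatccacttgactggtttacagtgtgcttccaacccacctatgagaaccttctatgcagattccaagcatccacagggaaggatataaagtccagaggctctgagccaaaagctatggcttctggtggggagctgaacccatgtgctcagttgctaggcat
Lcn2 (chr2:32387690-32387989, minus strand): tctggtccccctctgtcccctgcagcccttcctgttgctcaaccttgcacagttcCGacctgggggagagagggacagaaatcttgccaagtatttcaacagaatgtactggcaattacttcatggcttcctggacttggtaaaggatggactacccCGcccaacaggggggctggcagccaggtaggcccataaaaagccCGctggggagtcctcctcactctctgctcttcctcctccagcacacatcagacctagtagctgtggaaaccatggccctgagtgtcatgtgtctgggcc

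The Lcn windows held few CpGs. Their number lay between 0 and 4, with a median of 1.5, against a median of 7 over all 32851 promoter windows of the RefSeq table, of which 38% held 4 or fewer. The 5 genes that fell held 1 (Lcn8, Lcn11), 2 (Lcn3) or 3 (Lcn4, Lcn6), and the other genes held from 0 (Lcn5) to 4 (Lcn12), so the 2 sets overlapped in CpG count. The letters TATAAA, a core promoter motif, were found on either strand in 2 of the 10 windows, beginning 29 bases before the start of Lcn3 and 28 before that of Lcn5, against 13.6% of all windows. The letters TGTTCT, a half-site of the androgen receptor's element, were found on either strand in 5 of the 10 windows (Lcn6, Lcn9, Lcn10, Lcn11 and Lcn12), against 19% of all windows. A match to the NF-kB consensus was found in 1 window, that of Lcn10, where it reads on both strands at the same place, against 8.46% of all windows. These matches describe letters in a window and show no binding.

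Loss of Aire was the first comparison. In the arrays labelled Aire-/- mTEChi, 5 of the 10 Lcn genes fell relative to Aire+/+ mTEChi and none rose, where 0.772% of the 22154 genes fell and 0.0226% rose at the same threshold (limma, Benjamini-Hochberg adjusted p under 0.05). The 5 were the vomeronasal secretory proteins Lcn3 and Lcn4, the epididymal lipocalins Lcn6 and Lcn8, and Lcn11. Their falls ran from 2.41 to 4.59 on the log2 scale, and the 10 genes had a median difference of -1.59, against 0.06 over all genes. In bulk RNA of this kind, fewer cells that express a gene and less RNA per cell cannot be told apart.

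Lcn8 (Entrez Gene 78076), a lipocalin of the epididymis, read 5.16 and 5.06 (log2 intensity) in Aire-/- mTEChi, against 9.35 and 10.05 in Aire+/+ mTEChi. Both knockout arrays lay far below both wild-type arrays, at the level of Aire-/- mTEClo (4.96) and Aire+/+ mTEClo (5.05). The difference was -4.59 (SE 0.342, n = 2 and 2, adjusted p = 0.00218), a 24.1-fold fall on the intensity scale. In the other line Lcn8 read 8.90 and 9.63 in Brg1-/- mTEChi, against 9.57 and 9.64 in Brg1+/+ mTEChi, so these 4 arrays were all high and the groups overlapped. It read 6.13 in Brg1-/- mTEClo and 4.97 in Brg1+/+ mTEClo, the first being the highest of the 4 mTEClo arrays.

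Lcn6 (Entrez Gene 620709), also an epididymal lipocalin, read 5.65 and 5.51 in Aire-/- mTEChi, against 7.92 and 8.05 in Aire+/+ mTEChi. The replicate arrays of each group lay within 0.14 of each other and the groups did not overlap. The difference was -2.41 (SE 0.302, n = 2 and 2, adjusted p = 0.0155). Lcn6 read 7.23 and 7.65 in Brg1-/- mTEChi, against 8.25 and 7.58 in Brg1+/+ mTEChi, where the groups overlapped. In mTEClo it read 5.50 in Aire-/- and 5.65 in Aire+/+, and 5.26 in Brg1-/- and 6.65 in Brg1+/+, so the Brg1+/+ array was the highest of the 4.

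Lcn3 (Entrez Gene 16820) encodes vomeronasal secretory protein 1, a lipocalin of nasal and vomeronasal glands. It read 4.19 and 3.92 in Aire-/- mTEChi, against 6.96 and 7.37 in Aire+/+ mTEChi, with no overlap. The difference was -3.11 (SE 0.27, n = 2 and 2, adjusted p = 0.00336). The Brg1-/- mTEChi arrays read 6.76 and 6.38 and the Brg1+/+ mTEChi arrays 6.82 and 6.87, so the knockout arrays were a little lower and all 4 stayed above every mTEClo array. In mTEClo Lcn3 read 3.93 in Aire-/-, 4.63 in Aire+/+, 3.65 in Brg1-/- and 4.57 in Brg1+/+.

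Lcn4 (Entrez Gene 16821) encodes vomeronasal secretory protein 2. It read 3.12 and 2.79 in Aire-/- mTEChi, against 5.63 and 6.51 in Aire+/+ mTEChi, and the knockout arrays lay within the range of the mTEClo arrays, which read 2.68 in Aire-/-, 3.20 in Aire+/+, 2.75 in Brg1-/- and 2.79 in Brg1+/+. The difference was -3.12 (SE 0.472, n = 2 and 2, adjusted p = 0.037). Its wild-type arrays lay 0.88 apart, a wider gap than for the other 4 genes that fell. The Brg1 line overlapped, with 6.38 and 5.13 in Brg1-/- mTEChi, against 5.67 and 6.08 in Brg1+/+ mTEChi.

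Lcn11 (Entrez Gene 227630) read 5.37 and 5.06 in Aire-/- mTEChi, against 9.99 and 9.35 in Aire+/+ mTEChi. The difference was -4.46 (SE 0.445, n = 2 and 2, adjusted p = 0.00616), a 21.9-fold fall. It read 9.28 and 8.53 in Brg1-/- mTEChi, against 9.81 and 8.72 in Brg1+/+ mTEChi, with overlap. In mTEClo it read 5.72 in Aire-/- and 5.71 in Aire+/+, and 6.58 in Brg1-/- and 7.05 in Brg1+/+, so both arrays of the Brg1 line were higher than both of the Aire line.

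**Figure D1:**
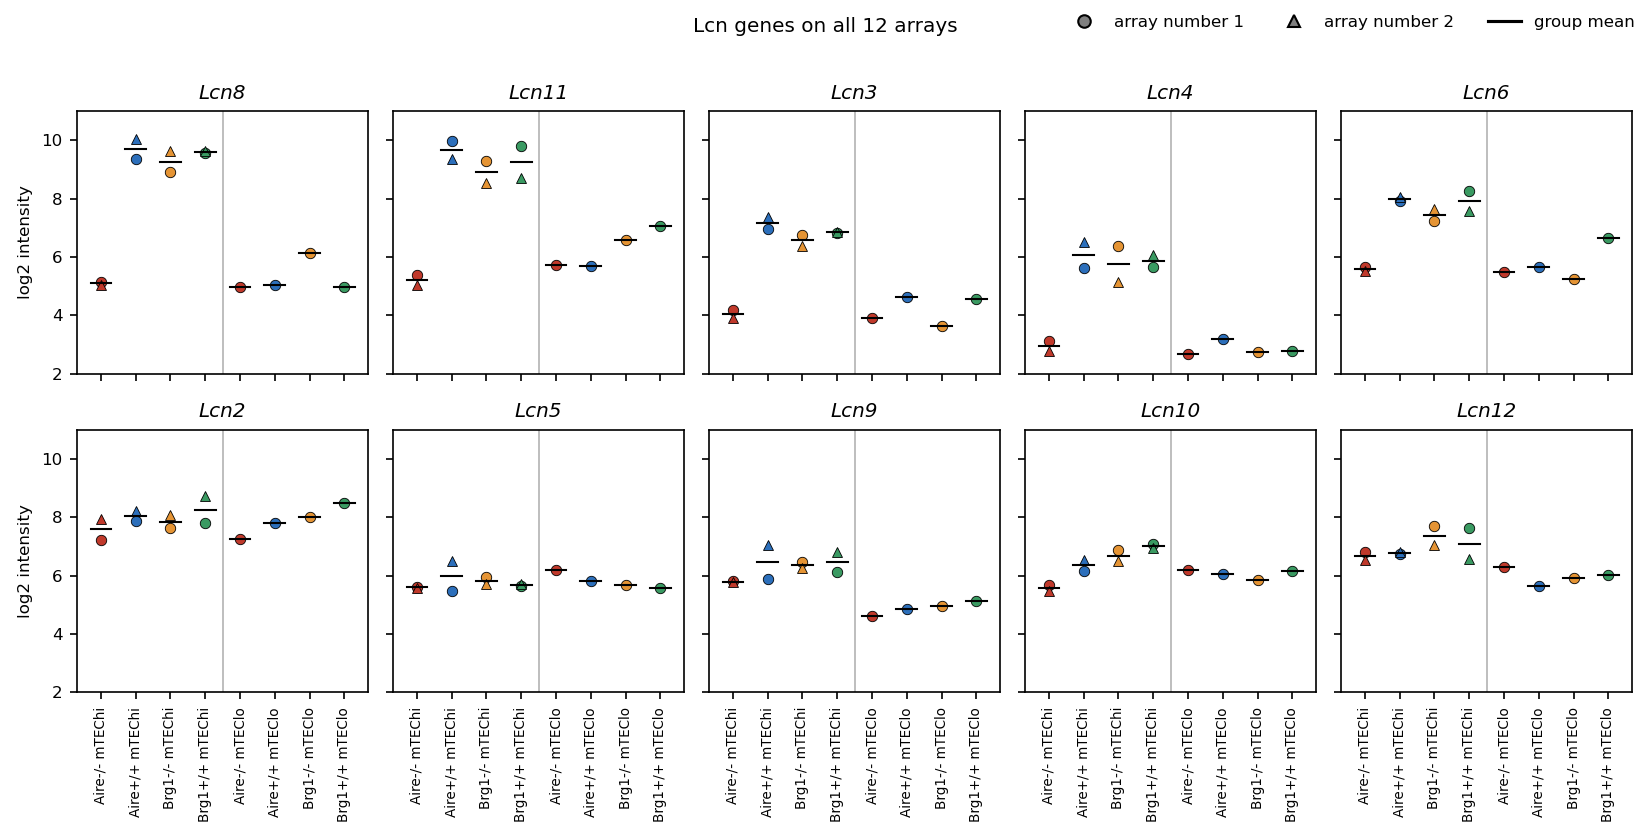
Log2 intensity of each Lcn gene on all 12 arrays, by group (knockout left of its wild type, mTEChi left of mTEClo), with circles for arrays numbered 1, triangles for arrays numbered 2 and a black line at the group mean. In the top row Aire-/- mTEChi lies near the mTEClo arrays, for Lcn8 at 5.16 and 5.06 against 9.35 and 10.05 in Aire+/+ mTEChi. In the bottom row Lcn9 lies at 4.63 to 5.15 on the mTEClo arrays, below every mTEChi array.

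The other 5 Lcn genes did not pass. Lcn2 (Entrez Gene 16819), the neutrophil gelatinase-associated lipocalin that binds bacterial siderophores, read 7.23 and 7.96 in Aire-/- mTEChi, against 7.89 and 8.22 in Aire+/+ mTEChi. Its groups overlapped, and the difference of -0.46 (SE 0.404, adjusted p = 1) had a 95% interval from -1.40 to 0.48. Lcn5, the epididymal retinoic acid-binding protein, differed by -0.40 and the epididymal Lcn12 by -0.10, each with overlapping groups. The epididymal Lcn9 and Lcn10 differed by -0.69 (adjusted p = 1) and -0.78 (adjusted p = 0.587), with both knockout arrays below both wild-type arrays. In all, 7 of the 10 genes had knockout arrays wholly below the wild-type arrays, against 11.6% of all genes, and 0 had them wholly above, against 15.9%.

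The 5 falls were also read between arrays of the same number. As the groups of these genes did not overlap, any pairing had to give falls, so this is no separate check. For Lcn8 the knockout minus wild-type difference was -4.19 for number 1 and -4.99 for number 2, and for Lcn11 it was -4.62 and -4.29. The number of calls depended on few arrays. Without Aire+/+ replicate 1 or without Aire-/- replicate 2 it was 2 (Lcn3 and Lcn8), and without Aire+/+ replicate 2 or without Aire-/- replicate 1 it was 3 (with Lcn11). Without either Brg1+/+ mTEChi array, which enter through the shared estimate of spread, Lcn4 did not pass.

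Loss of Brg1 was followed in the same genes. None of the 10 Lcn genes passed in Brg1-/- against Brg1+/+ mTEChi (limma), where 0% of the 22154 genes were called, and at an unadjusted p under 0.05 there were 0 of the 10 and 301 of all genes. The differences lay between -0.48 (Lcn6) and 0.28 (Lcn12), with a median of -0.31 against 0.00 over all genes. The 95% interval was -1.14 to 0.46 for Lcn8, -1.40 to 0.68 for Lcn11 and -0.91 to 0.36 for Lcn3. For Lcn4 the interval was -1.22 to 0.98 and for Lcn6 it was -1.18 to 0.23. For each of these 5 genes the estimated Aire difference lay outside the interval, which leaves out the error of that estimate. The difference between the knockouts is tested below. The knockout arrays lay wholly below the wild-type arrays for 2 of the 10 genes, Lcn3 and Lcn10, against 9.62% of all genes, and wholly above for 0, against 9.77%. On the Brg1-/- mTEChi arrays the summed intensity of the 10 measured thymocyte markers was 760.2 and 2473.9, against 771.4 and 870.3 in Brg1+/+ mTEChi. The highest sum is that of 1 array, on which Cd3d (10.12, log2), Cd8b1 (8.92) and Cd3g (8.58) were the brightest of the 10. The median log2 level of the 10 was 5.82 to 6.14 with Brg1 lost and 5.8 to 5.89 in its wild type. Sums also spread within the Aire line, from 603.2 to 1374.2 for wild-type mTEChi and from 613.8 to 1093.0 for the knockout. The part of thymocytes in the Lcn values was not tested.

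**Figure D2:**
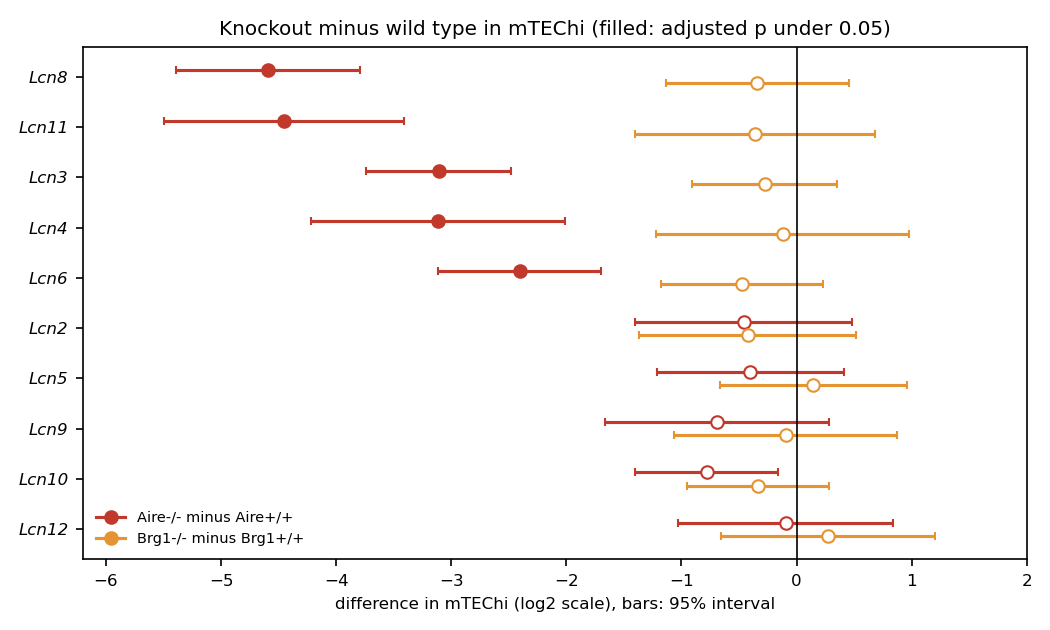
Knockout minus wild-type difference of each Lcn gene in mTEChi on the log2 scale, for Aire (red) and Brg1 (orange), with 95% intervals from limma and filled points where the adjusted p is under 0.05. The 5 filled points are Aire differences between -4.59 and -2.41, and every Brg1 interval covers 0.

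The difference between the knockouts was tested itself, as the Brg1 effect minus the Aire effect in mTEChi. It passed for Lcn8 (4.25, SE 0.483, adjusted p = 0.0324), 1 of the 10 genes, where 0.135% of all genes were called. Lcn3 (2.84, adjusted p = 0.061), Lcn11 (4.10, adjusted p = 0.0953), Lcn6 (1.93, adjusted p = 0.325) and Lcn4 (3.0, adjusted p = 0.329) did not pass. Leaving out any 1 of the 8 mTEChi arrays took the count to 0.

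mTEChi were then set against mTEClo. In the wild types, averaged over both lines, 5 of the 10 Lcn genes were higher in mTEChi and none lower, where 1.93% of all genes were higher and 0.632% lower. Lcn8 was higher by 4.64 (SE 0.296, adjusted p = 0.00102, 4 and 2 arrays), Lcn11 by 3.09 (SE 0.386), Lcn4 by 2.98 (SE 0.408), Lcn3 by 2.41 (SE 0.234) and Lcn6 by 1.80 (SE 0.262, adjusted p = 0.0152). Lcn6 did not pass without Aire+/+ mTEChi replicate 2 (adjusted p = 0.0542). The median over the 10 genes was 1.63, against -0.10 over all genes. Of 5 tuft cell markers, Il25, Dclk1 and Gnat3 were lower in mTEChi, and Trpm5 (-1.083) and Pou2f3 (-0.065) did not pass. The 5 summed to between 457.1 and 866.7 (intensity) on the wild-type mTEChi arrays, against 3284.6 and 3910.4 on the wild-type mTEClo arrays. Gnat3, at 11.17 and 11.39 (log2) on those mTEClo arrays, weighs most in the sum. The part of tuft cells in the Lcn values was not tested. This comparison and that of Aire share the Aire+/+ mTEChi arrays. For 7 of the 10 genes the 4 wild-type mTEChi arrays lay above both wild-type mTEClo arrays, against 11.4% of all genes, and for 0 below them, against 17.7%.

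The Brg1 line shares no array with the Aire line. In Brg1+/+ alone Lcn8 was higher in mTEChi by 4.64 (SE 0.418, adjusted p = 0.0155, 2 and 1 arrays) and Lcn3 by 2.28 (SE 0.331, adjusted p = 0.0495), where 0.339% of all genes were higher. Lcn4 (3.09, adjusted p = 0.106), Lcn11 (2.22, adjusted p = 0.225) and Lcn6 (1.27, adjusted p = 0.339) did not pass. Without either Brg1+/+ mTEChi array neither passed, and without any single Aire or Brg1-/- mTEChi array Lcn3 did not pass. A group of 1 array has no spread of its own, and that of the other groups was used. In Aire+/+ alone Lcn8 (4.65, adjusted p = 0.0112), Lcn3 (2.54, adjusted p = 0.0303) and Lcn11 (3.96, adjusted p = 0.0352) were higher, where 0.501% of all genes were higher. There Lcn4 (2.87) and Lcn6 (2.335) did not pass, and Lcn6 lay close to the threshold. Without Aire+/+ mTEChi replicate 2 no Lcn gene passed, and without Aire+/+ replicate 1 or any single Aire-/- or Brg1-/- mTEChi array Lcn8 alone passed. With arrays numbered 1 alone, a difference without a test, Lcn8 was 4.30 higher in Aire+/+ and 4.60 higher in Brg1+/+.

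In Brg1-/- Lcn8 (3.14, SE 0.418, adjusted p = 0.0371) and Lcn3 (2.92, SE 0.331, adjusted p = 0.0215) were higher in mTEChi than in mTEClo, where 0.542% of all genes were higher. Without either Brg1-/- mTEChi array the count of 2 became 0, and without any other mTEChi array it became 1, that of Lcn3. In Aire-/- none of the 10 passed, where 0.469% of all genes were called. At an unadjusted p under 0.05 there were 0 of the 10 and 1520 of the 22154 genes. The mTEChi minus mTEClo difference in Aire-/- was 0.15 for Lcn8, -0.51 for Lcn11, 0.13 for Lcn3, 0.28 for Lcn4 and 0.08 for Lcn6. The largest in Aire-/- was that of Lcn9, 1.17 (SE 0.509, adjusted p = 0.748).

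**Figure D3:**
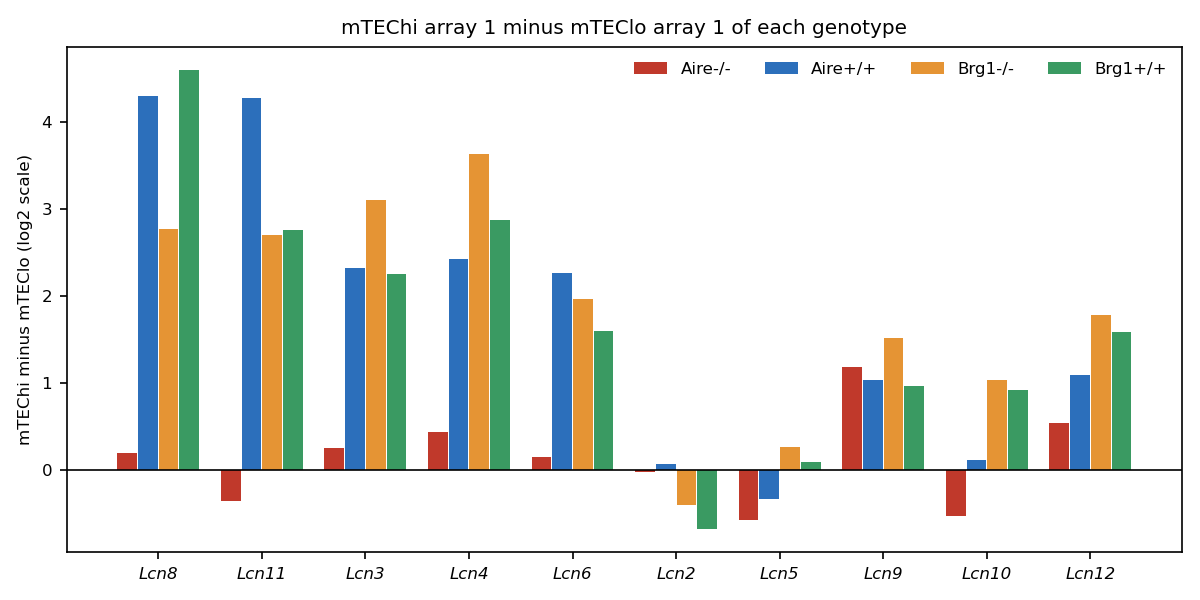
Difference between mTEChi array 1 and mTEClo array 1 of each genotype on the log2 scale, 1 bar per genotype and Lcn gene, with no error because each bar is 1 array minus 1 array. Lcn8, Lcn11, Lcn3, Lcn4 and Lcn6 lie between 1.60 and 4.60 in Aire+/+, Brg1-/- and Brg1+/+, and between -0.35 and 0.44 in Aire-/-.

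Lcn9 and Lcn12 did not pass in the wild types (adjusted p = 0.103 and 0.211). On arrays numbered 1 they lay higher in mTEChi than in mTEClo in each genotype, by 0.97 to 1.52 for Lcn9 and by 0.54 to 1.79 for Lcn12, Aire-/- included. Lcn12 read 6.83 and 6.53 in Aire-/- mTEChi, against 6.74 and 6.81 in Aire+/+ mTEChi, and from 5.64 to 6.29 on the mTEClo arrays. Lcn9 read 5.82 and 5.77 in Aire-/- mTEChi, against 5.90 and 7.07 in Aire+/+ mTEChi, and from 4.63 to 5.15 on the mTEClo arrays. Lcn2, Lcn5 and Lcn10 showed no such order, with wild-type differences of 0.01, 0.15 and 0.58. Lcn2 lay between 7.62 and 8.07 in Brg1-/- mTEChi and between 7.80 and 8.74 in Brg1+/+ mTEChi, and it read 7.25 in Aire-/-, 7.82 in Aire+/+, 8.02 in Brg1-/- and 8.48 in Brg1+/+ mTEClo, so its 2 cell fractions overlapped. Lcn10 was lowest in Aire-/- mTEChi, at 5.67 and 5.49, against 6.17 and 6.55 in Aire+/+ mTEChi, and it was highest in Brg1+/+ mTEChi, at 7.09 and 6.95. It read 6.88 and 6.49 in Brg1-/- mTEChi and 5.84 to 6.20 on the mTEClo arrays. Lcn5 lay between 5.49 and 6.51 over the 12 arrays, with both ends in Aire+/+ mTEChi.

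In mTEClo none of the 10 Lcn genes passed for either knockout (limma, 1 and 1 arrays), where 0% of all genes were called in each comparison. At an unadjusted p under 0.05 there were 0 Lcn genes and 298 of all 22154 genes for Aire. For Brg1 there were 3 Lcn genes, namely Lcn6 (-1.39), Lcn8 (1.16) and Lcn3 (-0.92), and 382 of all genes, each from 1 array against 1. In mTEClo Lcn8 differed by -0.09 between Aire-/- and Aire+/+ and Lcn11 by 0.01. The Aire effect in mTEChi minus that in mTEClo was -4.50 for Lcn8 (SE 0.592, adjusted p = 0.16) and -4.47 for Lcn11 (SE 0.771, adjusted p = 0.38). No Lcn gene passed this test of the difference, where 0% of all genes were called. At an unadjusted p under 0.05 there were 5 Lcn genes and 547 of the 22154 genes.

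The likeness of the Lcn genes over the arrays was then described. Pearson's r over the 12 arrays lay between 0.90 and 0.979 for the 10 pairs among the 5 genes that fell without Aire, and between -0.195 and 0.871 for the other 35 pairs of Lcn genes. These values describe arrays that share groups and normalization, and those 5 genes were picked by the Aire comparison on the same arrays. Lcn8, Lcn11 and Lcn4 had the widest ranges over the 12 arrays, and the genes most like each were sought among 3734 genes with an SD of at least 0.5. For Lcn8 they were the mast cell protease Mcpt2 (r = 0.989), Spink13 (0.988), Ly6a2 (0.981) and the stomach protein Gkn2 (0.979). For Lcn11 they were the lens crystallin Crygc (0.985), Fam162b (0.984), the pancreatic hormone Ppy (0.981) and the defensin Defa24 (0.98). For Lcn4 they were Lcn3 (0.979), the carbonic anhydrase Car1 (0.979), Bpifa2 (0.978) and Gkn2 (0.977). Lcn3 and Bpifa2 lie on chromosome 2 and the other genes named here lie on other chromosomes.

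The Lcn genes that passed were not all next to each other. In the order of the RefSeq table, Lcn8 (-4.59 in Aire-/- against Aire+/+ mTEChi) is followed by Lcn5 (-0.40), Lcn6 (-2.41), Lcn10 (-0.78), the odorant-binding lipocalin Obp2a (-5.98), Bmyc, Obp2b (-1.23), Lcn3 (-3.11) and Lcn11 (-4.46). Lcn8, Lcn6, Obp2a, Lcn3 and Lcn11 passed, and the genes between them did not. Whether neighbouring genes differ from each other was not tested. Lcn9 (-0.69) follows after Glt6d1, Lcn12 (-0.10) lies before Lcn8 between Ptgds and C8g, and Lcn4 and Lcn2 lie farther along the chromosome.

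Of 43 measured protein-coding genes that lie between or beside the Lcn genes, 2 fell in the arrays labelled Aire-/- mTEChi and none rose. Over all genes 0.772% fell and 0.0226% rose. The 43 had a median of 0.08, against 0.06 over all genes. Those that fell were Obp2a (-5.98, adjusted p = 0.00587), which read 3.21 and 3.58 in Aire-/- mTEChi, against 8.65 and 10.10 in Aire+/+ mTEChi, and Ptgds (-3.33, adjusted p = 0.0448). Ptgds is the lipocalin-type prostaglandin D synthase and read 6.39 and 6.29 in Aire-/- mTEChi, against 10.27 and 9.07 in Aire+/+ mTEChi. The other 41 neighbours lay between -1.23 (Obp2b) and 0.87 (Naif1). In the wild types 1 neighbour, Obp2a, was higher in mTEChi than in mTEClo (4.47, adjusted p = 0.00759), where 1.93% of all genes were higher. None of the 43 passed for Brg1 in mTEChi, where 0% of all genes were called.

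**Figure D4:**
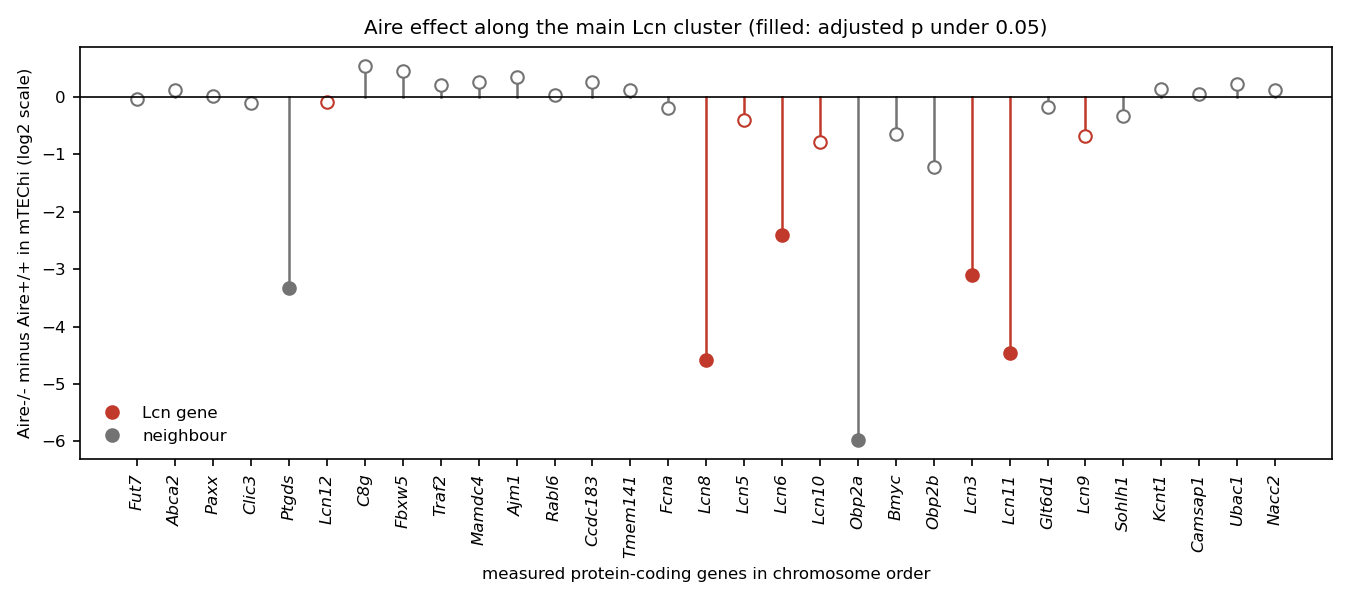
Aire-/- minus Aire+/+ difference in mTEChi on the log2 scale for the Lcn genes and the measured protein-coding genes beside them, in their order on chromosome 2 (ranks, not distances; Lcn4 and Lcn2, farther along, are not drawn). Filled points passed at an adjusted p under 0.05, and they include Lcn8, Lcn6, Obp2a, Lcn3 and Lcn11 with Lcn5, Lcn10 and Obp2b among them at -1.23 or nearer to 0.

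Other secreted lipocalins were read beside the Lcn genes. Of 34 listed, 17 were measured with a single symbol, with a median of -1.23 in the Aire comparison, against 0.06 over all genes. Of the 17, 6 fell in the arrays labelled Aire-/- mTEChi and none rose, where 0.772% of all genes fell and 0.0226% rose. The 6 were Mup6 (-7.07, adjusted p = 0.00353) and Mup20 (-4.16), which encode major urinary proteins that carry pheromones, Obp2a, the odorant-binding protein Obp1a (-5.51), the acute-phase glycoprotein Orm2 (-3.25) and Ptgds. Mup6 read 3.86 and 1.62 in Aire-/- mTEChi, against 9.81 and 9.80 in Aire+/+ mTEChi. In the wild types 5 of the 17 were higher in mTEChi than in mTEClo, where 1.93% of all genes were higher. These were the genes that fell without Aire except Ptgds, which was at 1.51 (adjusted p = 0.195). The complement chain C8g was at 0.54 in the Aire comparison (adjusted p = 0.96). None of the 17 passed for Brg1 in mTEChi, where 0% of all genes were called. Mup genes are near-identical copies, so a Mup probe set can read several of them.

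The intracellular fatty acid and retinoid binding proteins fold into a related barrel and were counted apart from the secreted lipocalins. The 14 measured had a median of -0.34 in the Aire comparison, against 0.06 over all genes. Of them 3 fell without Aire and none rose, where 0.772% of all genes fell and 0.0226% rose. These were Rbp7 (-3.94, adjusted p = 0.00439), a retinol-binding protein, Crabp1 (-3.06, adjusted p = 0.00587), which binds retinoic acid, and Fabp2 (-2.50, adjusted p = 0.0386), the intestinal fatty acid binding protein. In the wild types 6 of the 14 were higher in mTEChi, where 1.93% of all genes were higher. Among the 6 were the ileal Fabp6 (2.50) and the testis Fabp9 (1.76), for which the Aire differences were -1.42 (adjusted p = 0.197) and -0.24 (adjusted p = 1). None of the 14 passed for Brg1 in mTEChi, where 0% of all genes were called.

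Genes of the male tract were set beside the epididymal lipocalins. The 26 measured had a median of -0.49 in the Aire comparison, against 0.06 over all genes. Of them 3 fell without Aire and none rose, where 0.772% of all genes fell and 0.0226% rose. These were the seminal vesicle proteins Svs5 (-3.34, adjusted p = 0.0183) and Svs4 (-4.33, adjusted p = 0.0318) and the cystatin Cst12 (-4.36, adjusted p = 0.0219). In the wild types 5 of the 26 were higher in mTEChi, where 1.93% of all genes were higher. They were Svs5 (3.0), Cst12 (3.94), Cst11 (2.52), Spint5 (2.54) and Svs4 (2.83). The Aire differences of Cst11 (-2.575, limma adjusted p = 0.069) and Spint5 (-3.065, limma adjusted p = 0.0656) did not pass. None of the 26 passed for Brg1 in mTEChi, where 0% of all genes were called. Gpx5, a glutathione peroxidase of the epididymis, lay between 3.52 and 4.86 over all 12 arrays.

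Around Lcn2, 30 genes of siderophore uptake, iron handling, its known inducers and epithelial defence were measured. Of the 30, 1 fell without Aire, the secreted protease inhibitor Slpi (-2.59, adjusted p = 0.0468), which read 7.36 and 7.32 in Aire-/- mTEChi, against 10.34 and 9.51 in Aire+/+ mTEChi. The calgranulin S100a9 (-2.28, adjusted p = 0.069) and Bdh2 (-1.60, adjusted p = 0.0503), an enzyme of siderophore synthesis, did not pass. The Lcn2 receptors Slc22a17 (0.11) and Lrp2 (-0.12) had adjusted p = 1 each. The 30 genes had a median of -0.09, and in the wild types 1 was higher in mTEChi, the lysozyme Lyz1 (1.64, adjusted p = 0.0191). Over all genes the median was 0.06, 0.772% fell without Aire, and 1.93% were higher in wild-type mTEChi.

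Lcn2 is also a neutrophil gene, and markers of other cells were read beside it. The summed intensity of 12 neutrophil markers was 729.5 and 766.6 in Aire-/- mTEChi, against 2937.7 and 3243.8 in Aire+/+ mTEChi, and 447.5 to 603.5 on the mTEClo arrays. Camp (11.13 and 10.65, log2) and Ly6g (9.03 and 9.59) were the brightest of the 12 in Aire+/+ mTEChi and weigh most in that sum. The median log2 level of the 12 was 4.94 to 5.13 in Aire-/- mTEChi and 5.73 to 5.91 in Aire+/+ mTEChi. Of the 12, Ly6g (-5.33, adjusted p = 0.00333) and Camp (-2.45, adjusted p = 0.026) fell, where 0.772% of all genes fell. The other 10 did not pass and had differences from -1.655 (Retnlg) to 0.185 (Cxcr2). The 12 had a median difference of -0.612, against 0.06 over all genes. The granule gene Elane lay between 5.08 and 5.95 on all arrays and the receptor Csf3r between 3.99 and 4.66. Mpo, also a granule gene, read 5.70 and 5.33 in Aire-/- mTEChi, against 6.08 and 6.22 in Aire+/+ mTEChi. The 9 fibroblast and endothelial markers summed to between 1591.2 and 1638.8 in Aire-/- mTEChi and between 948.1 and 1044.8 in Aire+/+ mTEChi, with 0 of 9 called. Dcn was the brightest of the 9 and weighs most in the sum, at 10.23 and 10.24 (log2) in Aire-/- mTEChi, against 9.49 and 9.22 in Aire+/+ mTEChi. The 9 had a median difference of 0.085, against 0.06 over all genes. The 5 microfold cell markers summed to between 855.8 and 1498.8 in Aire-/- mTEChi and between 2132.1 and 3212.0 in Aire+/+ mTEChi, with 0 of 5 called. Ccl20 was the brightest of the 5 and weighs most in the sum, at 9.06 and 9.74 (log2) in Aire-/- mTEChi, against 10.29 and 10.58 in Aire+/+ mTEChi. Their differences were -1.795 (Gp2), -1.405 (Ccl9), -1.035 (Ccl20), 0.19 (Spib) and 0.2 (Tnfaip2). The median of these differences was -1.035, against 0.06 over all genes. On the linear intensity scale no marker is at 0, and the part of these cells in the Lcn values was not tested.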

How the data were processed

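RNA of sorted mTECs was measured on 12 biotin-labelled Affymetrix arrays. The deposited values are linear intensities, 1 per array for each of 33732 probe sets. Per the submitters' processing notes the tools were Transcriptome Analysis Console, RMA and Affymetrix Expression Console, listed without versions, and no genome build is named. On the log2 scale each deposited intensity is a number with 2 decimals, a step of 0.01. No detection p was used, so a level near background has no known floor and a fold against it is compressed. The number of arrays limits the precision.

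Tests used log2 intensities without a pseudocount and without renormalizing. Through the platform annotation 23491 probe sets had 1 gene symbol, 1811 several and 8430 none. The brightest probe set per gene by its mean over 12 arrays was kept, which set 1337 aside and left 22154 genes. Samples were grouped by the genotype and cell type in their titles into 8 groups. One model of 8 group means over all 12 arrays was fitted with limma 3.58.1 in R 4.3.3 (lmFit, eBayes), with 4 residual and 3.46 prior degrees of freedom. Tests were two-sided, and a gene passed at a p under 0.05 after Benjamini-Hochberg adjustment over the 22154 genes. SE is the moderated standard error and intervals are at 95%. Groups with 1 array were assumed to vary like the others. The fit was also run on simulated arrays with known falls in the Aire comparison. Their noise was independent between arrays, so that run does not cover deviations shared by arrays of the same number.

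The Lcn genes, the gene lists and the tests were chosen with earlier results of these data known. All Lcn genes are named. Of each list as many as 4 genes of lowest adjusted p in a comparison are named, and any neighbour or secreted lipocalin that passed. The cell markers, C8g, Obp2b, Gpx5, Naif1, Slc22a17, Lrp2, Svs4 and the genes standing between Lcn genes were named after their values were seen. mTEChi against mTEClo within single genotypes was added after seeing the data. For the 3 Lcn genes of widest range, the 4 genes of highest Pearson r are named, without predicted genes, small RNAs and olfactory and vomeronasal receptors. Promoter windows, names and gene order come from RefSeq tables of GRCm38.p6. The alternatives tried were centring each array on its median, quantile normalization, a filter on dim genes, the mean of all probe sets of a gene, mTEChi arrays alone, blocks of replicate number and leaving out each mTEChi array.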

Additional observations from a re-analysis of the deposited data

Results flagged for a closer look

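The response of Lcn8 differed between the lines in mTEChi when the lines' effects were tested against each other. Subtracting the Aire effect from the Brg1 effect gave 4.25 on the log2 scale (SE 0.483, adjusted p = 0.0324, limma), from a Brg1 difference of -0.34 and an Aire difference of -4.59. Between arrays of the same number, the knockout minus wild-type difference of Lcn8 was -0.67 and -0.01 for Brg1, the second no larger than the rounding step of 0.01, and -4.19 and -4.99 for Aire. The Brg1 groups overlapped. The test did not pass when any 1 of the 8 mTEChi arrays was left out.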

How the results depend on the processing

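Of 1003 values of single Lcn genes under another setting, 939 kept their direction and side of the threshold, 29 changed sign, 14 passed where they had not and 21 no longer passed. Part of these values could not move, so the counts do not measure stability. Using mTEChi arrays alone gave the same fit, and leaving out an array cannot move a difference that does not use it. The mean of all probe sets cannot alter the level of an Lcn gene, as each has 1 probe set. Of the 443 that did not come from leaving out an array, 424 kept both, 6 changed sign and 13 newly passed. No value that had passed changed sign. Leaving out 1 mTEChi array at a time, the Lcn genes called numbered 2 to 5 for Aire-/- against Aire+/+ mTEChi, 0 to 0 for the Brg1 effect minus the Aire effect and 0 to 1 for mTEChi against mTEClo in Brg1-/-. For the Brg1 effect minus the Aire effect the count of 1 became 2 with quantile normalization, 2 with the filter on dim genes, and 3 with either replicate block. mTEChi against mTEClo gave 2 calls in Brg1+/+ alone and 3 in Aire+/+ alone, against 5 in the averaged wild types, from fewer arrays. With dim genes left out Lcn4 was not tested.

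Both replicate numbers occur in every mTEChi group, and each mTEClo array is numbered 1. Deviations from the group means correlated between the mTEChi groups at r = 0.552 to 0.657 over 22154 genes, which are not independent. The labels do not say what the number marks, and with 2 pairs per comparison it was not taken to pair the arrays. With the replicate block within each line, or common to both lines (chosen after seeing the data), the Aire effect in mTEChi minus that in mTEClo had 2 calls (Lcn8 and Lcn11) instead of 0, and mTEChi against mTEClo in Brg1-/- had 6 instead of 2. For mTEChi against mTEClo in the wild types the 5 calls became 6 with the block within each line (Lcn12 added) and 7 with the common block (Lcn9 and Lcn12 added). In Brg1+/+ alone Lcn4 and Lcn11 also passed with either block, and Lcn12 with the block within each line. In Aire+/+ alone Lcn6 also passed with either block, and Lcn4 with the common block. Lcn6 in Aire+/+ alone passed without a block too, with median centring, the filter on dim genes or the mean of all probe sets. The Aire-/- against Aire+/+ mTEChi comparison kept its 5 genes and the Brg1 one stayed at 0 calls with either block.

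The sign changes were all in genes that had not passed. Leaving out arrays, the Aire difference in mTEChi ranged from -0.91 to 0.11 for Lcn5 and from -0.245 to 0.055 for Lcn12. The Brg1 difference ranged from -0.895 to 0.045 for Lcn2, from -0.75 to 0.51 for Lcn4, from -0.705 to 0.025 for Lcn8, from -0.44 to 0.25 for Lcn9, from -0.91 to 0.19 for Lcn11 and from -0.26 to 0.81 for Lcn12. The Brg1 effect minus the Aire effect ranged from -0.44 to 0.51 for Lcn2 (-0.048 with quantile normalization) and from -0.16 to 0.90 for Lcn12. mTEChi minus mTEClo in the wild types ranged from -0.22 to 0.25 for Lcn2 (-0.061 with quantile normalization and -0.29 with either replicate block) and from -0.11 to 0.40 for Lcn5. The Aire difference of Lcn11 in mTEClo was -0.04 with arrays centred on their median and -0.013 with quantile normalization. The Aire effect in mTEChi minus that in mTEClo ranged from -0.26 to 0.48 for Lcn2 and from -1.05 to 0.13 for Lcn9. The cause of these changes was not tested.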
